A study of Mus musculus with 18 samples.

Results

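The genes described here are 10 targets of the transcription factor p53, Cdkn1a, Mdm2, Ccng1, Bbc3, Pmaip1, Bax, Fas, Trp53inp1, Sesn1 and Phlda3, together with the promoter upstream transcript (PROMPT) of each. They were taken by symbol from the authors' deposited tables of nascent transcription, which list 21859 protein-coding genes and 32253 PROMPTs. Each of the 10 symbols had 1 row in the gene table and 1 row in the PROMPT table. The genes were chosen by symbol as known p53 targets, with earlier results of the comparison of SPT16-depleted and control libraries known. That comparison is not used here, and the levels below are a description of genes so chosen, with no test.

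p53 is stabilized by DNA damage and other stresses and then binds paired copies of a short sequence, the p53 half-site, near its target genes. The targets halt the cell cycle, start apoptosis, buffer oxidative stress or, through Mdm2, return p53 to a low level. PROMPTs, also known as upstream antisense RNAs, start at the same promoter region as a gene but run the opposite way, and are short and quickly degraded in most cells. TT-seq, in which RNA made during a brief pulse of 4-thiouridine is purified and sequenced, captures such RNAs before they decay.

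The cells were E14 murine embryonic stem (ES) cells that carry the plant F-box protein osTIR1, integrated at Rosa26 according to the paper's methods, and were grown without feeder cells in serum, LIF and inhibitors of GSK and MEK. In 2 clones Supt16, the gene of the FACT subunit SPT16, was also tagged with a mini-AID degron and V5, so that the auxin 3-IAA leads to loss of the protein. Untagged cells, SPT16_AID_V5 clone 1 and SPT16_AID_V5 clone 2 were each treated for 24 h with 3-IAA (500 nM per the labels) or with 0.1% ethanol (EtOH), and labelled for 5 min, with 3 libraries in each of the 6 conditions. The study asked how depletion of SPT16 changes transcription. The values used below are the authors' baseMean, which averages size-factor-normalized reads across the libraries of the comparison whatever their treatment. They give a level and not an effect of the depletion. No value per library was used here. The level therefore has no spread over replicates, no test between conditions was run, and whether neighbours in any order given below differ beyond their spread is not known.

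The sequences that bear on the PROMPTs are the promoters themselves. RefSeq promoter windows of 300 bases (GRCm38.p6, mostly upstream of a gene's start) were found for 8 of the 10 genes. Below are those of Mdm2 and Cdkn1a, whose PROMPTs were lowest relative to the gene, and of Bax and Phlda3, whose PROMPTs were highest among the genes printed. Capitals mark exact matches to the p53 half-site consensus (3 purines, then a core that starts with C, ends with G and has 2 bases of A or T between them, then 3 pyrimidines) and the motifs CCAAT and GGGCGG on either strand.
Mdm2, chr10:117710709-117711008, minus strand: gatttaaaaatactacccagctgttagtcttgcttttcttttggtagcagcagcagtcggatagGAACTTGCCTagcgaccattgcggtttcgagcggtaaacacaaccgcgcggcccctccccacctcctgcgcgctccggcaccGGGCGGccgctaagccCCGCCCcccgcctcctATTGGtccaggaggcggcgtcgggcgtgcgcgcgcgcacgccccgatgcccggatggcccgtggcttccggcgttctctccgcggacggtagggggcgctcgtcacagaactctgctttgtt
Cdkn1a, chr17:29090729-29091028, plus strand: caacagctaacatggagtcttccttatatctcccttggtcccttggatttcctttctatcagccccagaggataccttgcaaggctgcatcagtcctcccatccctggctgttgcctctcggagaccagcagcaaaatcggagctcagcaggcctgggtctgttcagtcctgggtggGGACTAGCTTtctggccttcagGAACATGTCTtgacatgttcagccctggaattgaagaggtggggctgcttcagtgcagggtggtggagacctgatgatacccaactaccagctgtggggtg
Cdkn1a, chr17:29093519-29093818, plus strand: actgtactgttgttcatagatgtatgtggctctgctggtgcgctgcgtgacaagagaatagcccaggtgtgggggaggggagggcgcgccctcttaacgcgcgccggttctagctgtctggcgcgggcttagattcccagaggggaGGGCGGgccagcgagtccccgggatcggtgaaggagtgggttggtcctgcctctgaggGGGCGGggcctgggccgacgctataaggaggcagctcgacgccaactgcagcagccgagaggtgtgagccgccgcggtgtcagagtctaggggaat
Bax, chr7:45466849-45467148, minus strand: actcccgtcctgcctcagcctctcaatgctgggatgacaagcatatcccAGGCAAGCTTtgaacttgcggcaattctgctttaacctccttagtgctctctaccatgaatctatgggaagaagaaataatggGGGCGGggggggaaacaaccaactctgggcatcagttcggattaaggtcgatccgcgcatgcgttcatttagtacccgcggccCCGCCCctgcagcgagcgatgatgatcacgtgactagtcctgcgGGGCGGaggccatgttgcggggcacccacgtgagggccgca
Phlda3, chr1:135765835-135766134, plus strand: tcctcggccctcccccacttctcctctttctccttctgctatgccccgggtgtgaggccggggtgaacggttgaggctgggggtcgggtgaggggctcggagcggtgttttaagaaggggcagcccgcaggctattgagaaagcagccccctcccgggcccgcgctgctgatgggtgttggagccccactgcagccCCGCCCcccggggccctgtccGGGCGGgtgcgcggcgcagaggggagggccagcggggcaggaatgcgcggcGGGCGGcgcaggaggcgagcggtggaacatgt

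The Cdkn1a windows belong to 2 start regions on chromosome 17, whose first starts are 2793 bp apart in Gencode vM21, and they differ in content. The window at the upstream start holds 2 exact half-sites and no GGGCGG, while that at the downstream start holds no half-site and GGGCGG 2 times. An exact half-site was present in the RefSeq promoters of 5 of the 8 genes, compared with 9.55% of 27025 genes with such windows and 8.36% of the 32851 windows themselves. GGGCGG was found in the promoters of 7 of the 8 genes and in those of 38.2% of all genes. CCAAT was found in 4 genes and in 41.1% of all genes. TATAAA was found in none of the 8 and in 15.7% of all genes. These shares are over genes of any level, and a gene counted if any of its windows matched. Genes of like level or like number of windows were not compared. A match is a description of the letters and not evidence of binding.

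Per kb of exon, all 10 genes were above the median of genes that reached a baseMean of 1, and on baseMean itself 9 of 10 were, with Fas below it at percentile 46.4. The baseMean of the 10 genes, in normalized reads per library, had a median of 4433 against 762 for these 17677 genes. Longer genes collect more reads, so levels were set per kb of annotated exon (Gencode vM21). On this scale the 10 genes had a median of 1663 normalized reads per kb, against 207 for all such genes.

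Of the 10 genes, Mdm2, which encodes the ubiquitin ligase that marks p53 for degradation, had the highest level in baseMean and per kb of exon. Its baseMean was 23277, or 4579 per kb of exon, which places it at percentile 98.7 of genes with a baseMean of at least 1. Mdm2 lies on the minus strand of chromosome 10 of GRCm38 from 117688875 to 117710758 and has 8 annotated starts.

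Of the genes that act on the cell cycle, Cdkn1a, which encodes the CDK inhibitor p21, had a baseMean of 13657 and 3844 normalized reads per kb of exon (percentile 98.0). Ccng1, which encodes cyclin G1, had a baseMean of 6577 and 1873 per kb (percentile 91.7). Cdkn1a was thus second only to Mdm2 among the 10 genes on this scale, with Ccng1 well below it.

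Among the apoptosis genes the levels were spread more widely. Bax, the BCL2 family member that permeabilizes the outer mitochondrial membrane, had 1453 normalized reads per kb of exon (baseMean 2290, percentile 88.0). Bbc3, which encodes the BH3-only protein PUMA, had 704 per kb (baseMean 1495, percentile 73.6). Pmaip1, which encodes the BH3-only protein NOXA, had 298 per kb (baseMean 814, percentile 56.3). Fas, which encodes a death receptor of the cell surface, was the lowest of the 10 genes with 277 per kb (baseMean 571, percentile 54.9). The BH3-only genes and Fas were thus nearer the middle of the genes than Bax was.

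Trp53inp1, which encodes a stress-induced nuclear and autophagy protein, had 2820 normalized reads per kb of exon (baseMean 18259, percentile 96.1). Phlda3, which encodes a PH-domain protein that restrains AKT, had 1401 per kb (baseMean 2184, percentile 87.3). Sesn1, which encodes a sestrin that restrains mTORC1, had 1957 per kb (baseMean 7793, percentile 92.3).

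From Mdm2 to Fas the levels per kb of exon spanned 16.5 times. The order depended on the length used for some genes. Both lengths were used, as nascent RNA holds introns and the feature type counted is not given in the sources used here. Sesn1, which spans 98490 bp and has 3982 bp of exon, had 79.1 normalized reads per kb of gene span. Fas, with a span of 37107 bp, had 15.4 per kb of span and remained the lowest. Cdkn1a had the highest value on that scale, 1400 per kb of span, above Mdm2 with 1064. For Bax, 192 bp of exon are shared with the overlapping gene Gm45808 on the same strand, so that its reads could have been left out or split.

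The PROMPTs of the same genes were far lower and were ordered differently. Their baseMean ran from 0.671 for Fas to 68.7 for Bax, a span of 102 times, with a median of 10.1. For comparison, 10875 of the 32253 listed PROMPTs had a baseMean of at least 1, and these had a median of 5.29. Of the 10 PROMPTs, 9 reached a baseMean of at least 1 and 5 reached at least 10. Among 10131 pairs of a gene and its PROMPT in which the gene had a baseMean of at least 100, as all 10 genes did, 62.9% and 24.6% of the PROMPTs reached these levels.

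**Figure D1:**
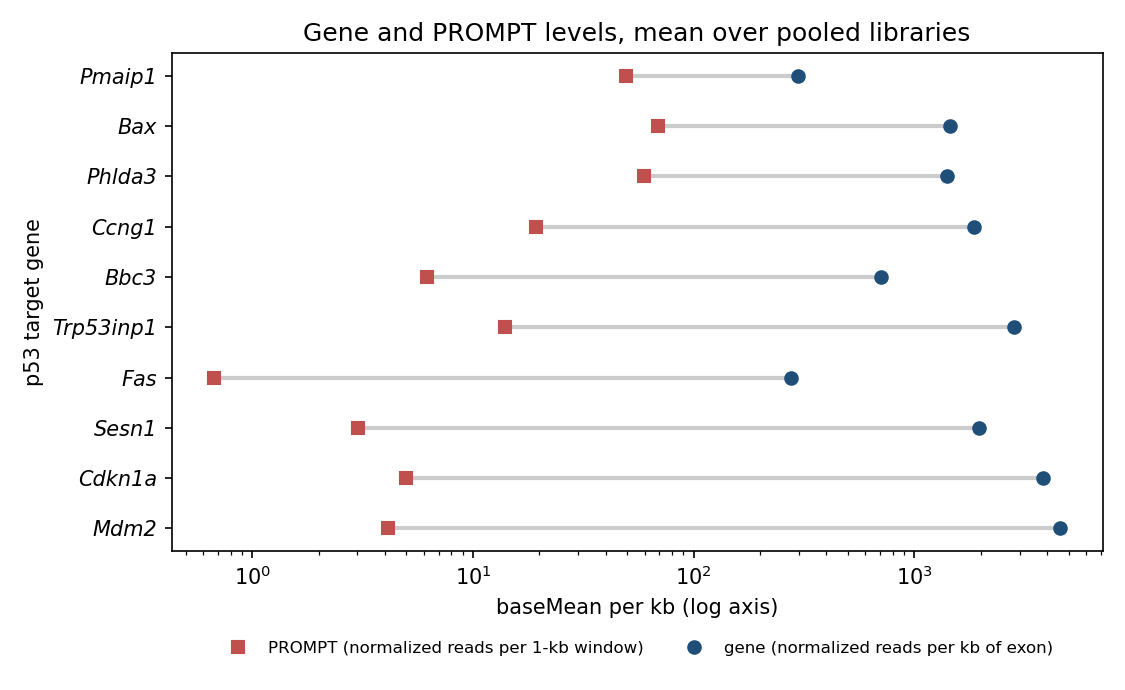
Levels of the 10 p53 target genes (circles, baseMean per kb of exon) and of their PROMPTs (squares, baseMean per 1-kb window) on a log axis, joined by a grey line for each gene and ordered by the distance between them. Pmaip1, with 298 and 49.4, has the shortest line and Mdm2, with 4579 and 4.11, the longest; the values are pooled means without replicate error.

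The highest PROMPT levels were those of Bax, Phlda3 and Pmaip1. The Bax PROMPT had a baseMean of 68.7, at percentile 95.1 of PROMPTs with a baseMean of at least 1. The Phlda3 PROMPT had 59.3 (percentile 93.8). The Pmaip1 PROMPT had 49.4 (percentile 92.2). Together these 3 held 77.3% of the summed baseMean of the 10 PROMPTs, although Bax and Phlda3 were near the middle of the 10 genes in gene level and Pmaip1 was near the bottom.

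Intermediate levels were found for Ccng1, with a PROMPT baseMean of 19.3 (percentile 79.2), and for Trp53inp1, with 14.0 (percentile 72.7). The PROMPT of Bbc3 had a baseMean of 6.17 (percentile 54.1). Those of Cdkn1a, Mdm2 and Sesn1 were lower still. The Cdkn1a PROMPT had a baseMean of 4.98 (percentile 48.2) and the Mdm2 PROMPT had 4.11 (percentile 43.0). For Sesn1 the value was 3.00 (percentile 33.8). These percentiles depend on the PROMPTs they are taken over. Over all 32253 listed PROMPTs, most of which were below 1, Cdkn1a lay at percentile 82.5, Mdm2 at 80.8 and Sesn1 at 77.7, all above the median.

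The Fas PROMPT, at 0.671, was below the minimum of 1. Multiplied by the 18 libraries of the series, this corresponds to 12.1 normalized reads in all, against 1236 for Bax. At this depth the levels of the lowest PROMPTs rest on few reads. These sums assume that each of the 18 libraries entered the mean.

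Set side by side per kb, the gene exceeded its PROMPT in each of the 10 pairs. Whether the gene and PROMPT tables were scaled by the same size factors is not given in the sources used here. The effect of a separate scaling on the ratios or their order was not tested. The gene to PROMPT ratio was 6.03 for Pmaip1, 21.2 for Bax and 23.6 for Phlda3. It was 97.0 for Ccng1, 114 for Bbc3 and 202 for Trp53inp1. For the remaining genes it was 413 for Fas, 651 for Sesn1, 772 for Cdkn1a and 1114 for Mdm2. Over the 7389 pairs whose gene and PROMPT each reached a baseMean of 1, the median ratio was 53.4, so that 7 of the 10 pairs had relatively less PROMPT than the median pair and 3 had more. That reference leaves out pairs with a PROMPT below 1, Fas among them. Over the 14394 pairs with a gene baseMean of at least 1 and any PROMPT value, 5 of the 10 were below the median pair and the median percentile of the 10 went from 27.9 to 48.0, so that relative to this wider set they lay near the middle. On the log2 scale of PROMPT over gene, the median of the 10 was -7.25 and that of the 7389 pairs was -5.74. Mdm2 lay at percentile 3.08, Cdkn1a at 5.34 and Sesn1 at 6.42 of the 7389 pairs in PROMPT relative to gene, and Pmaip1 at 84.5. Mdm2 and Cdkn1a also held the lowest 2 places and Pmaip1, Bax and Phlda3 the highest 3 when gene span replaced exon length, but the ratios themselves and the places between these changed. Per kb of span the ratio was 26.3 for Sesn1 and 22.9 for Fas, and 259 for Mdm2 and 281 for Cdkn1a, whose order turned. Counted from the highest PROMPT relative to the gene, Fas moved from place 7 to 4, Sesn1 from 8 to 6, Ccng1 from 4 to 7 and Trp53inp1 from 6 to 8. The gene level is part of the ratio, so the high levels of Mdm2 and Cdkn1a themselves lower it.

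**Figure D2:**
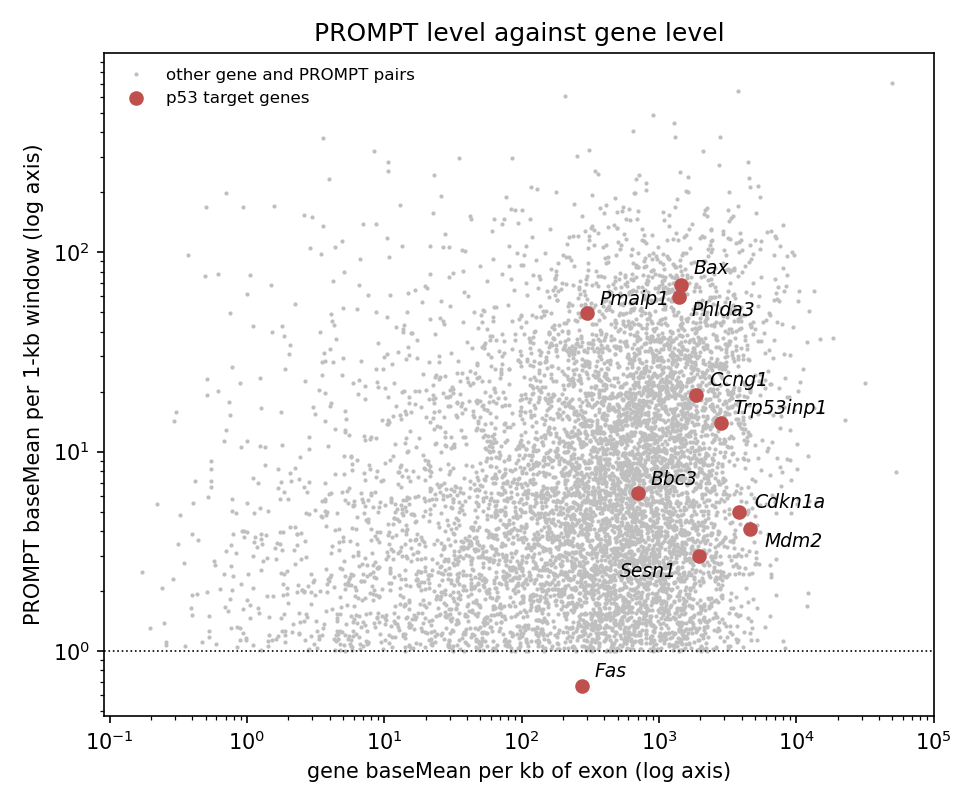
PROMPT level (baseMean per 1-kb window) against gene level (baseMean per kb of exon), both on log axes, for pairs that reach a baseMean of 1 on each side (grey) and for the 10 p53 target genes (red). The red points lie in the right part of the gene axis and spread along the PROMPT axis from Fas at 0.671, under the dotted line at 1, to Bax at 68.7.

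Set against genes of like baseMean, the PROMPTs of Mdm2 and Cdkn1a were near the middle. The 1338 pairs whose gene had a baseMean of at least 10000 had a median PROMPT baseMean of 4.23, with quartiles of 0.772 and 19.8. Among them the PROMPT of Mdm2 lay at percentile 49.7, that of Cdkn1a at 52.1 and that of Trp53inp1 at 67.9. In the 5251 pairs with a gene baseMean of 1000 to 10000, where the median PROMPT had 2.99, the PROMPTs of Bax and Phlda3 lay at percentiles 97.2 and 96.1, that of Ccng1 at 84.5, that of Bbc3 at 63.9 and that of Sesn1 at 50.1. In the 3542 pairs with a gene baseMean of 100 to 1000, the median PROMPT had 1.12, Pmaip1 lay at percentile 96.6 and Fas at 41.6. Over the 7389 pairs whose gene and PROMPT each reached a baseMean of 1, gene and PROMPT levels were weakly related, with a Spearman's rho of 0.17. Pairs below this limit on either side were left out, and rho over all 18072 pairs was not computed. Across the 10 pairs rho was -0.15. Gene and PROMPT values come from the same libraries, so both are given as a description.

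The position of each PROMPT was not used here, and for a gene with several starts the table does not say at which of them its PROMPT was counted. The number of annotated starts per gene ran from 2 for Ccng1 and Phlda3 to 8 for Mdm2. In the 1000 bp before the first start of each gene, another annotated gene lay on the strand of the PROMPT for Sesn1 only, where it was the protein-coding gene Cep57l1. The same held for 12.4% of the 7389 pairs. At Bax, which had the highest PROMPT level, the coding gene Gm45808 runs through that stretch on the strand of Bax. The authors' description leaves out windows within 1 kb of another protein-coding transcript. By the annotation used here, that would bear on the first starts of both Sesn1 and Bax, yet both have a PROMPT row. The second start of Sesn1 lies 77504 bp from the first, while Gm45808 lies close upstream of every annotated Bax start. At which start either PROMPT was counted is not known.

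In the 1000 bp before the first start, an exact p53 half-site was present at 7 of the 10 genes and at 28.0% of 21938 protein-coding genes. The CpG ratio (observed over expected) ran from 0.155 for Cdkn1a to 0.831 for Sesn1, and 7 of 10 were above the median of 0.340 for all of these genes. GC content was from 45.1% for Ccng1 to 57.4% for Phlda3, with a median of 47.8% over all genes, above which lay 8 of the 10. The polyadenylation signal AATAAA, searched in the direction of the PROMPT only, was present in 4 of the 10 windows (Bax, Fas, Mdm2 and Sesn1) and in 41.0% of all windows. The splice donor motif GTAAGT, searched in the same direction, was in none of the 10 and in 14.5% of all windows. The 3 genes with the highest PROMPT levels had CpG ratios of 0.377 (Bax), 0.438 (Phlda3) and 0.804 (Pmaip1), within the range of the other 7. All these values depend on the start chosen, and the reference genes were taken whatever their level. At Cdkn1a, Bbc3 and Sesn1, RefSeq promoter windows with GGGCGG lie after the first start, and CpG ratios at later starts were not computed.

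Paired p53 half-sites without a spacer and with intact cores of 4 bases were looked for within 5000 bp on either side of the first start. With at most 1 mismatch in the pair they were found at 2 of the 10 genes, Cdkn1a and Ccng1, and at 1.25% of 21938 protein-coding genes. With no mismatch they were found at none of the 10 and at 0.205% of all genes. After the first of these counts was seen, 1 mismatch was allowed in each half-site, which added Fas, for 3 of the 10 genes and 3.97% of all genes. The sites are given along the gene, with the half-site cores in capitals.
Cdkn1a, chr17:29090928-29090947, upstream: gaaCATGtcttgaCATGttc
Ccng1, chr11:40754936-40754955, intron: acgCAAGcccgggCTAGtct
Fas, chr19:34292364-34292383, intron: gggCATGtacaaaCATGtca

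The Cdkn1a site lies 38 bp before the upstream start of the gene, so that it falls in the 1000 bp upstream window, and it had 1 mismatch in all. The Ccng1 site, 365 bp after the start, had 1 mismatch and the Fas site, 1708 bp after the start, had 2. The PROMPT levels of these genes were 4.98, 19.3 and 0.671. The genes without a match had PROMPTs from 3.00 (Sesn1) to 68.7 (Bax), and Mdm2, Bbc3 and Trp53inp1 were also among them. With so few matches, no relation to the PROMPT level can be read from them. A stretch without a match says only that these letters are not in it.

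**Figure D3:**
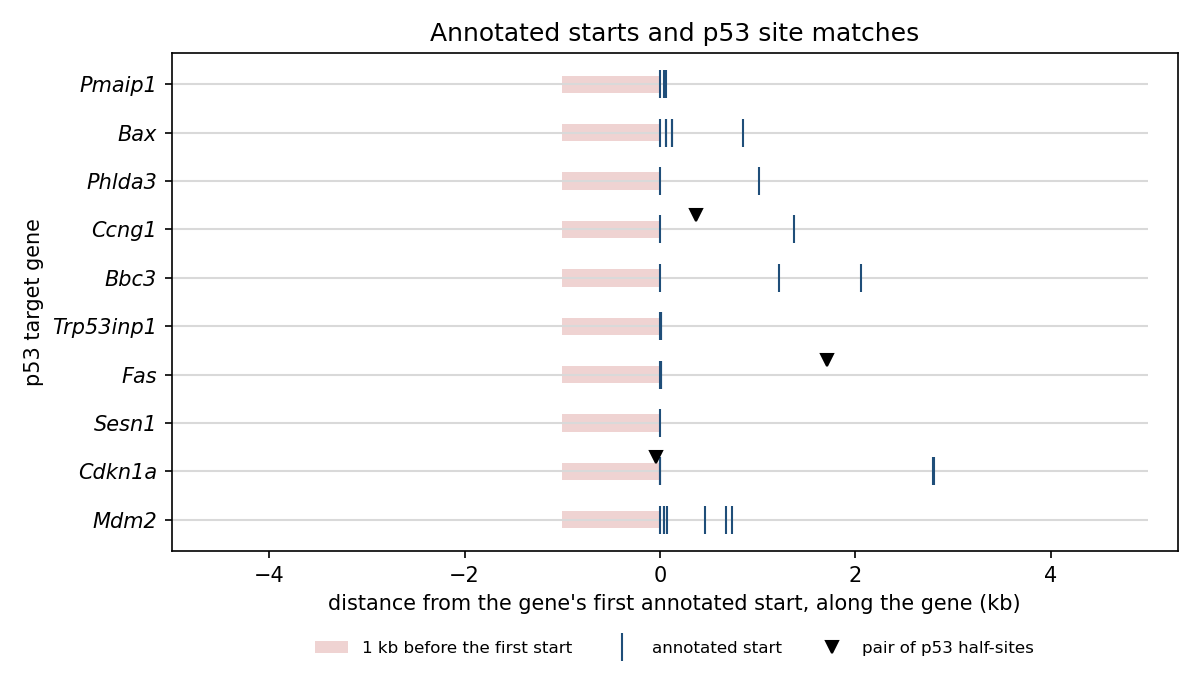
Map of the 10 genes with distance along the gene from its first annotated start in kb on the horizontal axis. Blue ticks are annotated starts within 5 kb, red bars the 1 kb before the first start and black triangles the pairs of p53 half-sites with at most 1 mismatch in each, which lie at Cdkn1a, Ccng1 and Fas.

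A wider list of p53 target genes written from general knowledge held 40 symbols, the 10 genes included, of which 39 were in the gene table. All 39 had a baseMean of at least 1, 38 had at least 100, and 35 were above the median of all genes per kb of exon. Their median percentile was 76.5. For comparison, 17677 of the 21859 listed genes reached 1, and the gene reached 100 in 10131 of 18072 gene and PROMPT pairs. The highest per kb after Mdm2 were Sesn2, another sestrin, with 3963 and Cdkn1a with 3844, and the lowest were Plk3 with 171, Tap1 with 61.4 and Tnfrsf26 with 13.1. Of the 33 with a row in the PROMPT table, 29 reached a baseMean of at least 1 and 18 at least 10, with a median of 11.5. Among all pairs whose gene had at least 100, 62.9% and 24.6% of the PROMPTs reached these levels. That set leaves out Tnfrsf26, whose gene was below 100. Of all listed PROMPTs, 33.7% reached 1. The 14 regulators of p53 in a second list were all above the median per kb of exon. Usp7, a deubiquitinase of Mdm2 and p53, had 7475 normalized reads per kb, Mdm4, a relative of Mdm2 that restrains p53, had 2313, and Chek2, a checkpoint kinase, had 2006. The lowest were Ppp1r13b with 438, Kat5 with 277 and Atr with 244. Trp53, the gene of p53 itself, had 1387 per kb (baseMean 5612, percentile 87.1) and a PROMPT baseMean of 12.1, which is within the range of its targets here.

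The levels fit the label of the cells. The 8 ES cell markers had baseMeans from 5985 (Sox2) to 72140 (Tfcp2l1), while 6 fibroblast markers ran from 0.118 to 25.7 and 3 blood markers from 0.135 to 5.70. The baseMeans of all genes summed to 55898466 normalized reads and those of all PROMPTs to 241485. The lowest baseMean above 0 was 0.0216 for genes and 0.0266 for PROMPTs.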

How the data were processed

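Nascent RNA of 18 libraries, 3 from each of 6 conditions, was measured by TT-seq. Reads had been trimmed by the authors (Trim Galore), mapped uniquely to mm10 (STAR) and assigned by strand to Gencode vM25 features (featureCounts), while the submitters' processing notes also name HTSeq and deepTools. The unit used is a signal, the baseMean of the deposited tables, which the authors made by dividing counts by DESeq2 size factors and averaging over libraries. The labels give 3-IAA as 500 nM and 4-thiouridine as 500 mM, the paper's methods as 500 µM each. The other columns, 8 in the 2 tables used, hold the authors' own comparison (log2 fold changes, standard errors, p-values and adjusted p-values) and were not used. Tables of DHSs and enhancers carry no gene names and were not used.

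The genes and lists were chosen with earlier results of these data known. Levels were set per kb of Gencode vM21 exon on GRCm38, matched by identifier for 99.8% of genes. Genes and PROMPTs were paired by unique symbol, and the PROMPT window was taken as 1 kb. Percentiles were taken over features with a baseMean of at least 1, ties counting by equal parts. All 10 genes were named, with the highest 3 and lowest 3 of each wider list per kb of exon and with Trp53 and Mdm4. Promoters were printed for the 2 genes with the highest and the 2 with the lowest PROMPT relative to the gene, leaving out Pmaip1. The gene level classes and the scans of the 1-kb windows and of paired half-sites were added after the levels were seen, and the looser limit of 1 mismatch in each half-site after the first count of pairs was seen. The functions were tested on simulated data (Python 3.11.15; pysam 0.24.0; matplotlib 3.10.9; scipy 1.17.1; pandas 2.3.3; numpy 2.4.6). Depth per library is not known from these values.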

Additional observations from a re-analysis of the deposited data

How the results depend on the processing

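No paired analysis was possible because the column used is a mean over all libraries and carries no replicate number, so no replicate could be left out either. The values are medians of the percentiles of the genes named. The 10 genes had a median percentile of 89.8 in level per kb of exon, which was 91.8 over all listed genes, 88.4 when the limit for genes was a baseMean of 10, 97.1 per kb of gene span and 76.4 with no length. For their PROMPTs the median percentile of 63.4 became 87.7 over all listed PROMPTs, 9.96 over PROMPTs with a baseMean of at least 10, where 5 of the 10 PROMPTs are below the limit, and 69.6 without windows that hold another gene on the PROMPT strand. For PROMPT relative to gene the median of 27.9 became 29.2 with a gene baseMean of at least 10, 48.0 with any PROMPT value, zeros included, 32.6 with no length and 31.5 without shared windows. With gene span it was 28.8, although single ratios such as those of Sesn1 and Fas changed far more. The wider list moved from 76.5 to 71.4 without the 10 genes and to 80.9 over all listed genes. With 1 mismatch allowed outside the core, 6 in place of 5 of the 8 genes had a half-site in a RefSeq promoter. The share of all genes with such windows rose far more, from 9.55% to 42.8%. Paired half-sites near the start, a scan added after seeing the data, were at 2 of the 10 genes with at most 1 mismatch in all, at 3 with 1 mismatch in each half-site and at 0 with none. The shares of all genes were 1.25%, 3.97% and 0.205%. The choice of features thus moves the PROMPT percentile most. The pooled mean hides any difference between conditions, and PROMPTs of low level rest on few reads.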
